A study of Capra hircus with 6 samples.

Results

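The NF-kB transcription factor subunits and their feedback inhibitors were examined in adipose mesenchymal stem cells of the goat, Capra hircus, which are fat-derived stromal cells that can be cultured and induced towards adipocytes. The members are 10 genes taken by their symbols, and all were found among the 16285 genes of the deposited tables. They are the subunit genes NFKB1, NFKB2, RELA, RELB and REL, and NFKBIA, NFKBIE, NFKBIZ, TNFAIP3 and BIRC3, listed as feedback inhibitors. RNA was sequenced in 6 libraries, 3 with the genotype label overexpressing YAP and 3 controls with the genotype label WT. Both groups carried the treatment label adipogenic differentiation, and neither a time point, an expression construct nor the number of clones or cultures is given in the sources used here. The series' design text names TAZ-overexpressing cells beside YAP, whereas the sample labels name YAP alone. In the table of the YAP libraries, 3 further columns named pcDNA, a name shared with a family of expression vectors, held the same values as the control columns for every gene, and the labels do not say whether control cells carried an empty vector.

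NF-kB proteins are dimers of Rel family subunits that wait in the cytoplasm bound to IkB inhibitors. Inflammatory receptors activate the IKK kinase complex, which marks the inhibitor IkB alpha for destruction and frees the dimer to enter the nucleus, and a slower noncanonical route through the kinase NIK processes the NFKB2 precursor so that it can pair with RELB. Many of the genes that the factor switches on encode its own precursors and inhibitors, so the transcripts of NFKBIA and TNFAIP3 are widely read as a record of pathway activity in stromal and other cells.

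Values were deposited as FPKM, counted fragments divided by gene length and by the total of the library, so levels of different genes can be set side by side. The FPKM steps gave back whole reads, with implied totals of 32593380 to 37131015 counted fragments in the libraries labelled YAP and 33871397 to 34967990 in control libraries. YAP1 itself averaged 27.4 ± 1.57 FPKM in the libraries labelled YAP and 27.2 ± 1.54 FPKM in controls (SD, n = 3 each), a log2 change of 0.01 with a 95% confidence interval of -0.17 to 0.19 (limma adjusted p = 0.95). No rise of the YAP1 transcript was detected in the group named for it, and each direction below is that of the labelled group. Stromal markers were abundant, at 24700 to 25200 summed FPKM over the 10 markers in the libraries labelled YAP and 21400 to 22700 in controls. Of the 10, 6 were higher, against 12.9% of all tested genes, and 2 lower, against 23.0%. The lower 2 were ENG and NT5E. ENG averaged 80.8 ± 4.98 FPKM in the libraries labelled YAP and 150 ± 14.8 FPKM in controls. NT5E averaged 127 ± 6.38 FPKM in the libraries labelled YAP and 170 ± 10.9 FPKM in controls. Of 6 adipocyte markers in the tables, PPARG, LPL, LEP, ADIPOQ and PLIN1 had at most 27 reads in any library. CIDEC, a lipid droplet protein gene and the adipocyte marker that was tested, fell to 9.56 ± 0.854 FPKM in the libraries labelled YAP, against 18.3 ± 1.31 FPKM in controls (limma adjusted p = 3.2e-05), and the summed FPKM of the 6 was 9.14 to 11.0 in the libraries labelled YAP and 17.2 to 19.6 in controls. The part of this difference in the results below was not tested.

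Changes were tested with limma on log2(FPKM + 1) over 10761 genes that reached 1 FPKM in at least 3 libraries, at a Benjamini-Hochberg adjusted p of 0.05. REL fell below this filter and the other 9 members were tested. Of these 9, 7 were higher in the libraries labelled YAP, against 12.9% of all tested genes, and 0 were lower, against 23.0%. In either direction 35.9% of all tested genes were called. RELA was lower at an unadjusted p under 0.05, and limma-voom on the recovered reads also called 7 members higher and 0 lower. The median log2 change over the 9 tested members was 0.93, and over all tested genes it was -0.10. Of the 10 members, TNFAIP3 passed the filter only through the libraries in which it was high. The direction of its call had to follow, so it is no support for the count of 7. The background itself moved: without YAP replicate 1 the number of genes called fell to 2411, against 3868 with all libraries, and median-of-ratios scaling turned the split of all calls from 1392 higher and 2476 lower into 1703 higher and 1507 lower. Under that scaling 7 members were called higher and 0 lower. Whether replicates were separate cultures is not stated, so the p-values rest on a spread among samples that may be technical.

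**Figure D1:**
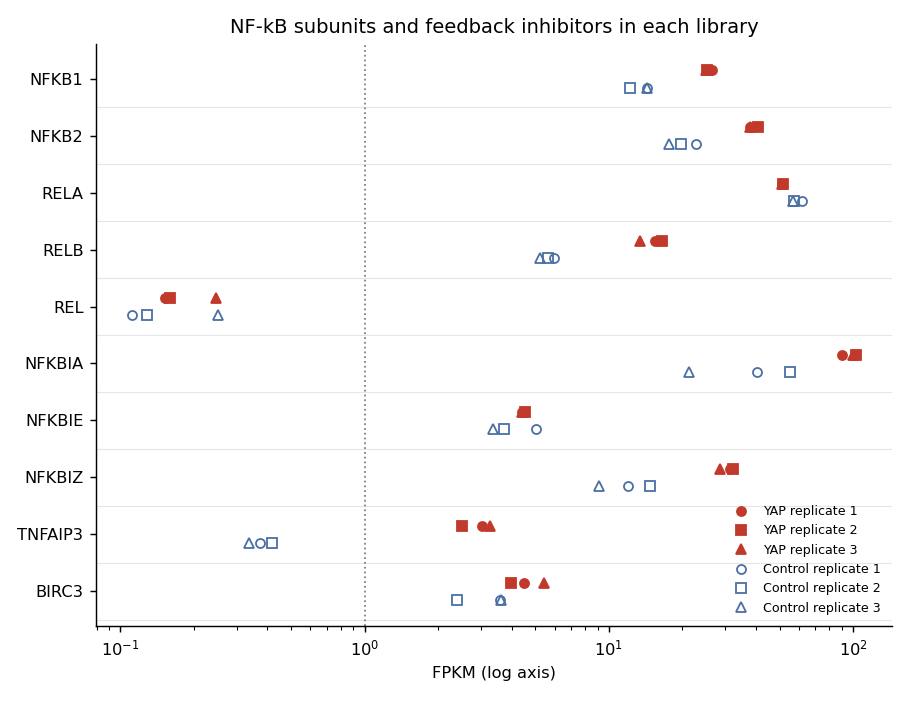
FPKM of each member in each library on a log axis, with the 3 libraries labelled YAP as filled symbols above the 3 control libraries as open symbols, and the dotted line at 1 FPKM. The groups separate fully for 8 of the 10 members, as they do for 48.3% of all tested genes, with RELA the one that lies lower in the libraries labelled YAP. TNFAIP3, among the 8, passed the filter only through the libraries labelled YAP, so its separation had to follow.

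The subunit genes split by member: NFKB1, NFKB2 and RELB rose in the libraries labelled YAP, RELA did not pass the test, and REL was barely detected. NFKB1, which encodes a precursor processed to the most common partner of RELA, stood at 26.5, 25.2 and 24.9 FPKM in YAP replicates 1 to 3, against 14.3, 12.2 and 14.3 FPKM in control replicates 1 to 3. Every library labelled YAP lay above every control, and NFKB1 rose with a log2 change of 0.87 (SE 0.09, limma adjusted p = 1.9e-05). Each NFKB1 value rested on 1567 to 3711 reads.

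NFKB2, the precursor gene of the noncanonical route, stood at 37.7, 40.9 and 37.7 FPKM in YAP replicates 1 to 3, against 22.7, 19.8 and 17.6 FPKM in control replicates 1 to 3. The groups were well apart, and the log2 change was 0.93 (SE 0.10, limma adjusted p = 2.8e-05). RELB, the activating subunit that pairs with processed NFKB2, stood at 15.4, 16.5 and 13.4 FPKM in YAP replicates 1 to 3, against 5.95, 5.62 and 5.24 FPKM in control replicates 1 to 3. Its rise was the largest among the subunits, a log2 change of 1.28 (SE 0.10, limma adjusted p = 2e-06) and a 2.69-fold ratio of mean FPKM.

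RELA, the main activating subunit of the canonical route, was the most abundant of the subunits in all 6 libraries. It stood at 51.0, 51.8 and 51.0 FPKM in YAP replicates 1 to 3, against 61.9, 57.3 and 57.0 FPKM in control replicates 1 to 3. The groups did not overlap, but the difference was small and missed the threshold (log2 change -0.19, SE 0.07, 95% confidence interval -0.35 to -0.03, limma adjusted p = 0.058). RELA passed it when no filter on low values was applied (limma adjusted p = 0.036), and the log2 change was -0.11 after median-of-ratios scaling. REL, the subunit best known from lymphocytes, stood at 0.153, 0.160 and 0.246 FPKM in YAP replicates 1 to 3, against 0.112, 0.129 and 0.252 FPKM in control replicates 1 to 3. These are 12 to 21 reads in the libraries labelled YAP and 9 to 20 in controls, with full overlap, and a difference was not detectable at this depth.

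Groups without overlap are common in these data: the share was 48.3% of all tested genes in either direction, 16.7% with the libraries labelled YAP above and 31.6% with them below. Against that background, 7 members lay wholly above the controls and RELA wholly below. TNFAIP3 is among the 7, and its separation had to follow, as it passed the filter only through the libraries labelled YAP.

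RELA held a smaller share of the Rel family transcripts in each library labelled YAP than in any control, a comparison that does not depend on how libraries are scaled against each other. The summed FPKM of the 5 subunit genes was 131, 135 and 127 in YAP replicates 1 to 3, against 105, 95.1 and 94.4 in control replicates 1 to 3. RELA held 39.2% ± 0.832 of that sum in the libraries labelled YAP and 59.9% ± 0.795 in controls (SD, n = 3 each), a difference of -20.7 percentage points. NFKB2 held 29.6% ± 0.799 in the libraries labelled YAP and 20.4% ± 1.54 in controls, 9.26 points more. The shares of NFKB1 and RELB were 5.68 and 5.80 points higher. For each of these 4 shares the groups did not overlap and the exact two-sided permutation test gave p = 0.1, which is the smallest p that 3 against 3 libraries allow. The share of REL was 0.143% ± 0.0436 in the libraries labelled YAP and 0.170% ± 0.0853 in controls (exact permutation p = 0.7).

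**Figure D2:**
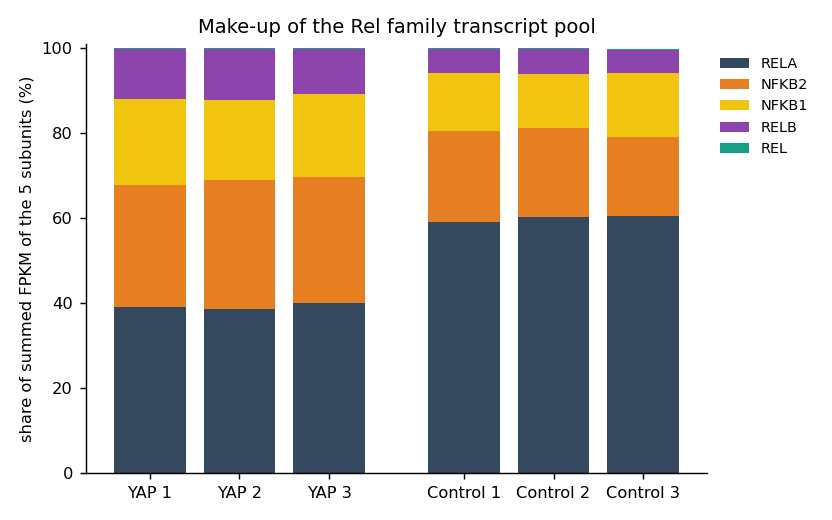
Share of the summed FPKM of the 5 Rel family subunit genes held by each gene (percent), as stacked bars for YAP replicates 1 to 3 and then control replicates 1 to 3. RELA fills 38.5% to 40.1% of the bar in the libraries labelled YAP and 59.0% to 60.4% in controls, and REL is too small to see.

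The classical IkB gene NFKBIA and the nuclear regulator NFKBIZ rose, while NFKBIE did not pass the test. NFKBIA encodes IkB alpha, which holds RELA dimers in the cytoplasm and is resynthesised after each round of activation. It stood at 89.8, 103 and 99.8 FPKM in YAP replicates 1 to 3, against 40.4, 55.2 and 21.2 FPKM in control replicates 1 to 3. Even the highest control lay below every library labelled YAP, and the log2 change was 1.40 (SE 0.25, 95% confidence interval 0.86 to 1.94, limma adjusted p = 0.0013). NFKBIA was also the most abundant of the 10 members in the libraries labelled YAP, where RELA came next, whereas in controls RELA came first and NFKBIA second by mean, with NFKBIA ranging widely.

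NFKBIZ encodes IkB zeta, an atypical family member that works in the nucleus as a cofactor for secondary response genes such as IL6. It stood at 31.4, 32.1 and 28.6 FPKM in YAP replicates 1 to 3, against 12.0, 14.8 and 9.13 FPKM in control replicates 1 to 3. The groups were clearly apart (log2 change 1.31, SE 0.14, limma adjusted p = 2.8e-05). NFKBIE, which encodes the slower IkB epsilon, stood at 4.41, 4.55 and 4.43 FPKM in YAP replicates 1 to 3, against 5.02, 3.72 and 3.37 FPKM in control replicates 1 to 3. Control replicate 1 lay above all libraries labelled YAP and the other controls below them, so the groups overlapped (log2 change 0.13, 95% confidence interval -0.13 to 0.39, limma adjusted p = 0.41).

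TNFAIP3 showed the largest relative rise of all members, and BIRC3 a small one. TNFAIP3 encodes A20, which shuts off signalling from TNF and Toll-like receptors upstream of IKK. It stood at 3.02, 2.50 and 3.27 FPKM in YAP replicates 1 to 3, against 0.372, 0.417 and 0.337 FPKM in control replicates 1 to 3. The lowest library labelled YAP was far above the highest control, on 363 to 542 reads in the libraries labelled YAP and 52 to 63 reads in controls. The ratio of mean FPKM was 7.81, and the log2 change was 1.51 on the log2(FPKM + 1) scale (SE 0.10, limma adjusted p = 6.5e-07). That scale understates the change of a gene this low: with a pseudocount of 0.1 the log2 change was 2.67, and limma-voom on recovered reads gave 2.96. TNFAIP3 passed the filter only through the libraries labelled YAP. The direction of its call thus had to follow, and its values are a description.

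BIRC3 encodes cIAP2, a ubiquitin ligase at the TNF receptor complex that protects cells from death and also restrains NIK. It stood at 4.49, 3.96 and 5.42 FPKM in YAP replicates 1 to 3, against 3.57, 2.39 and 3.63 FPKM in control replicates 1 to 3. The groups did not overlap, but the gap between the lowest library labelled YAP and the highest control was narrow (log2 change 0.43, SE 0.14, limma adjusted p = 0.03). The call was lost without control replicate 2 (limma adjusted p = 0.1), YAP replicate 1 (0.071) or YAP replicate 3 (0.097), and without a filter on low values (0.1). In the RefSeq gene table, BIRC3 stands directly beside its relative BIRC2 and on the same chromosome as YAP1, with 5 annotated genes between BIRC3 and YAP1. BIRC2 fell, at 7.26 ± 0.0816 FPKM in the libraries labelled YAP and 9.76 ± 1.04 FPKM in controls (SD, n = 3 each; log2 change -0.38, limma adjusted p = 0.0088).

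**Figure D3:**
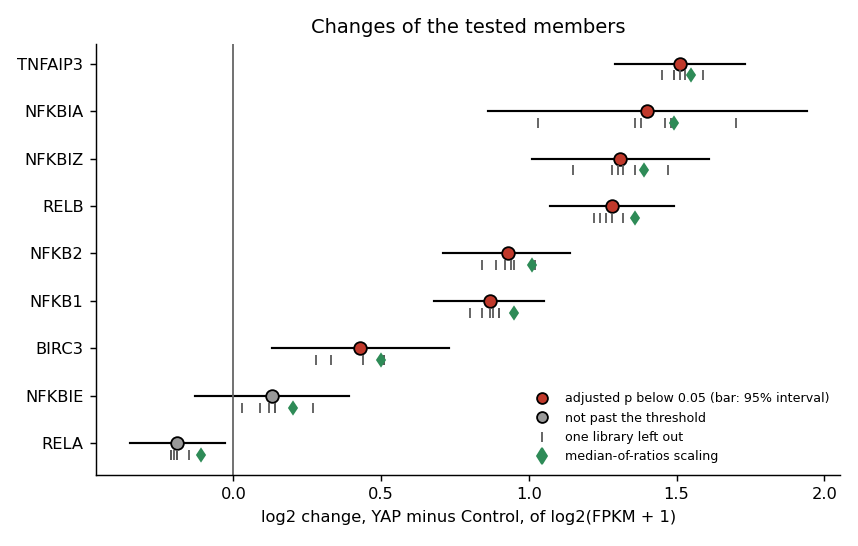
Log2 change (YAP minus Control) of log2(FPKM + 1) for the 9 tested members, with 95% confidence intervals as bars, ticks for fits with 1 library left out and diamonds for median-of-ratios scaling. TNFAIP3, NFKBIA, NFKBIZ and RELB lie above 1, NFKB2 and NFKB1 at 0.93 and 0.87, and NFKBIA has the widest interval.

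Relative to RELA in the same library, the feedback genes stood higher in the libraries labelled YAP. The FPKM ratio of NFKBIA to RELA was 1.76, 1.99 and 1.96 in YAP replicates 1 to 3, against 0.652, 0.964 and 0.372 in control replicates 1 to 3. The level of the inhibitor transcript exceeded that of its partner in each library labelled YAP and in no control. The mean log2 difference of that ratio was 1.63, a 3.09-fold change. The ratio to RELA was 2.99-fold higher for NFKBIZ, 8.93-fold higher for TNFAIP3 and 1.67-fold higher for BIRC3. For NFKBIE the ratio was 0.0866, 0.0878 and 0.0868 in YAP replicates 1 to 3, against 0.0811, 0.0649 and 0.0590 in control replicates 1 to 3, a 1.29-fold difference. For all 5 ratios the groups did not overlap and the exact two-sided permutation test gave p = 0.1, the smallest that 3 against 3 libraries allow. TNFAIP3 passed the filter only through the libraries labelled YAP, where RELA lay lower. The separation of the TNFAIP3 ratio thus had to follow, and that ratio is a description. Since RELA itself lay lower in the libraries labelled YAP, ratios to it tend upwards: of all other tested genes, 31.4% had a ratio to RELA that was higher in every library labelled YAP than in every control, and 43.5% had no overlap in either direction. NFKBIE is an example, as its FPKM values overlapped and its ratios did not.

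**Figure D4:**
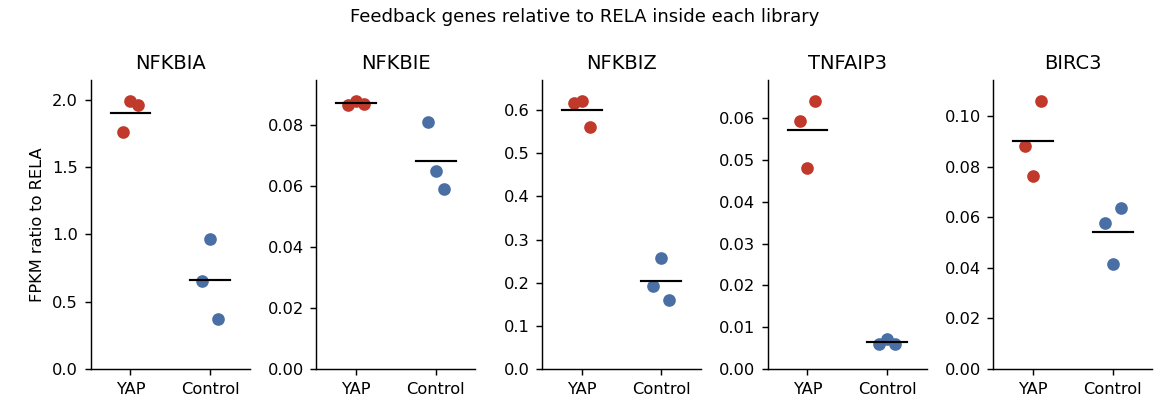
FPKM ratio of each feedback gene to RELA in the same library, with points for the 3 libraries labelled YAP and then the 3 control libraries, and horizontal lines at the group means; each panel has its own axis from 0. The NFKBIA ratio lies between 1.76 and 1.99 in the libraries labelled YAP and between 0.372 and 0.964 in controls.

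The spread between replicates differed among members and between groups. In controls, the coefficient of variation (SD over mean) was 43.8% for NFKBIA, larger than in 99.4% of tested genes, and 23.7%, 21.9% and 21.6% for NFKBIZ, BIRC3 and NFKBIE, all larger than in over 94% of tested genes. RELA and RELB were steady in the same libraries, at 4.68% and 6.32%. In the libraries labelled YAP the coefficient was 7.15% for NFKBIA, 5.99% for NFKBIZ, 15.9% for BIRC3 and 1.62% for NFKBIE. It was lower than in controls for every member except RELB and TNFAIP3. RELB stood at 10.3% in the libraries labelled YAP, and TNFAIP3 at 13.5%, against 10.7% in controls. Control replicate 2 held the highest control value of NFKBIA, NFKBIZ and TNFAIP3, and control replicate 3 the lowest of all 3 genes. Control replicate 3 was the lowest control for 7 of the 10 members. Without control replicate 3 the log2 change of NFKBIA was 1.03, and without control replicate 2 it was 1.70.

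Most of the ligands that start NF-kB signalling were read at low levels. Of 11 listed ligand genes in the tables, 7 were below the filter, and 2 of the 4 tested were called higher while 1 fell, a list too small to set against the 12.9% and 23.0% of all tested genes. TNFSF13B, which encodes the B cell factor BAFF, stood at 2.32 ± 0.198 FPKM in the libraries labelled YAP, against 0.156 ± 0.0346 FPKM in controls, a 14.8-fold ratio. It passed the filter only through the libraries labelled YAP, where it is high, so its call had to follow and supports neither the ligand count nor that of the noncanonical genes. Its log2 change was 1.52 on the log2(FPKM + 1) scale, 3.24 with a pseudocount of 0.1 and 3.86 with limma-voom on recovered reads. IL1A, an interleukin-1 that acts from dying or stressed cells, rose to 10.6 ± 1.15 FPKM, against 3.71 ± 1.13 FPKM in controls (log2 change 1.33, limma adjusted p = 8.6e-05). IL18 fell to 26.0 ± 1.28 FPKM, against 50.5 ± 2.58 FPKM in controls. TNF itself, named after its values were seen, had 35, 11 and 33 reads in YAP replicates 1 to 3 and 25, 27 and 12 reads in control replicates 1 to 3, with full overlap. IL1B, likewise named after its values were seen, had 4 to 5 reads in each library labelled YAP and 0 in each control, where the upper limit that a count of 0 allows is 3 reads per library. Without a filter on low values, 5 of 9 ligand genes were called higher and 1 lower, against 1543 and 2276 of all 15958 genes. The ligand genes that this fit added lay below the filter, with 0 to 35 reads in each library.

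Of 12 tested receptors, 6 were called higher and 2 fell, against 12.9% and 23.0% of all tested genes. CD40, a TNF receptor family member that feeds both routes, rose to 11.9 ± 0.472 FPKM in the libraries labelled YAP, against 3.84 ± 1.22 FPKM in controls (log2 change 1.44, limma adjusted p = 2.2e-05). IL1RAP, the shared signalling chain of interleukin-1 receptors, rose to 2.54 ± 0.528 FPKM, against 1.07 ± 0.182 FPKM in controls. TLR2, a receptor for bacterial lipoproteins, rose to 3.40 ± 0.217 FPKM, against 1.71 ± 0.434 FPKM in controls, and IL18R1 stood at 1.28 ± 0.185 FPKM in the libraries labelled YAP, against 0.594 ± 0.143 FPKM in controls. IL18R1, counted among the 6, passed the filter only through the libraries labelled YAP, so its values are a description. The fallers were TNFRSF1B and TNFRSF12A, named after their values were seen. The count of receptor calls was 5 without YAP replicate 1 (4 higher and 1 lower) and 5 without control replicate 1 (all higher). The calls over all tested genes also dropped in these fits, from 3868 to 2411 and 3231.

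Most adaptors and kinases did not pass the test, which also holds for all tested genes, of which 35.9% were called in either direction. Of 25 tested adaptors and kinases, 7 rose (28.0%, against 12.9% of all tested genes) and 2 fell (8.0%, against 23.0%). The median log2 change of the list was 0.08. The IKK genes, named after their values were seen, did not pass the test: IKBKB averaged 5.53 ± 0.112 FPKM in the libraries labelled YAP and 5.46 ± 0.509 FPKM in controls (log2 change 0.02, 95% confidence interval -0.18 to 0.22), the log2 change of IKBKG was 0.09 (-0.11 to 0.29) and that of CHUK was -0.28 (-0.53 to -0.03, limma adjusted p = 0.075). IKBKE, an IKK-related kinase that is itself inducible, rose to 8.81 ± 0.326 FPKM, against 4.62 ± 1.07 FPKM in controls (log2 change 0.82, limma adjusted p = 4.7e-04). TRAF1 rose with a log2 change of 0.52, RNF31, the catalytic subunit of the linear ubiquitin ligase complex, with 0.53, and IRAK2, an interleukin-1 receptor kinase family member, with 0.46. The fallers, named after their values were seen, were IRAK1 (log2 change -0.44) and MAP3K7 (-0.47), which encodes the kinase TAK1 above IKK.

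In the noncanonical pathway, 4 of 10 tested genes were called higher, among them TNFSF13B with the limit given above, and 2 fell. Like the ligands, this list is too small to set against the 12.9% higher and 23.0% lower of all tested genes. Beside TNFSF13B and CD40, which also stand among the ligands and receptors, MAP3K14, the gene of NIK, rose to 3.18 ± 0.214 FPKM in the libraries labelled YAP, against 1.66 ± 0.323 FPKM in controls (log2 change 0.66, limma adjusted p = 7.6e-04). BIRC2, part of the complex that degrades NIK, was among the genes that fell.

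Other inhibitors did not stand apart from all tested genes by their counts. Of 26 tested genes, 5 rose (19.2%, against 12.9% of all tested genes) and 7 fell (26.9%, against 23.0%), counts that became 6 and 3 after median-of-ratios scaling. TNIP1, a partner of A20, rose to 76.9 ± 3.02 FPKM in the libraries labelled YAP, against 31.7 ± 4.55 FPKM in controls (log2 change 1.26, limma adjusted p = 2.9e-06). ZC3H12A, a ribonuclease that degrades inflammatory mRNAs, rose to 17.2 ± 1.11 FPKM, against 5.58 ± 1.18 FPKM in controls (log2 change 1.48). BCL3, an atypical IkB, rose to 31.6 ± 4.70 FPKM, against 15.3 ± 1.14 FPKM in controls, and NFKBIB, the gene of IkB beta, rose to 12.0 ± 1.43 FPKM, against 6.88 ± 0.407 FPKM in controls. None of the log2 changes of the 7 genes that fell went below -0.62, the value of PDLIM2, a ligase that targets nuclear RELA and is named here after its values were seen.

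Known target genes were mostly higher: 19 of 23 tested genes rose (82.6%, against 12.9% of all tested genes) and 2 fell (8.7%, against 23.0%). The median log2 change of the list was 0.85. IL6 rose to 29.9 ± 3.95 FPKM in the libraries labelled YAP, against 1.03 ± 0.0667 FPKM in controls (log2 change 3.92, limma adjusted p = 6.4e-10). The adhesion molecule gene ICAM1 had a log2 change of 3.26 and the polyamine enzyme gene SAT1 of 2.36, at 326 ± 21.4 FPKM in the libraries labelled YAP and 62.5 ± 4.45 FPKM in controls. PTGS2, the inducible cyclooxygenase, had a log2 change of 1.75. The 4 genes that did not rise are named after their values were seen: BCL2L1 (log2 change -0.46) and MMP9 (-0.78) fell, and GADD45B (-0.55, limma adjusted p = 0.076) and LIF (0.13, limma adjusted p = 0.36) did not pass. Among the 19, 2 genes, TNFAIP2 and CSF3, passed the filter only through the libraries labelled YAP and are also named after their values were seen. The direction of their calls had to follow, so they are no support for the count of 19. Many of these targets were already known to be high in these libraries when the list was written, so their count is no independent evidence of direction.

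**Figure D5:**
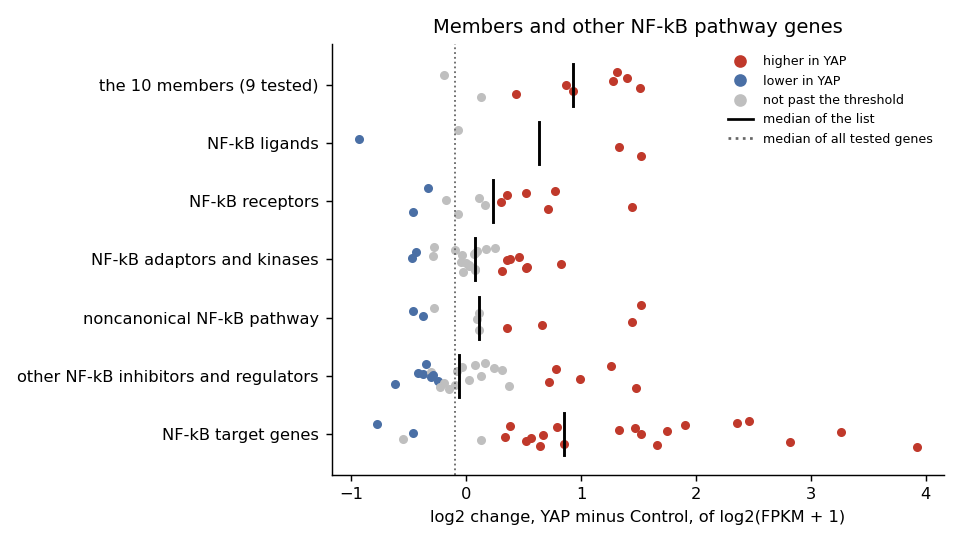
Log2 change (YAP minus Control) of log2(FPKM + 1) for the tested genes of the members and of 6 other lists of the NF-kB pathway, 1 point per gene, with the list median as a black line and the median of all tested genes as a dotted line. Targets and members sit mostly to the right, with medians of 0.85 and 0.93, and adaptors and kinases near 0.

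The pathway annotation that came with the deposited tables gave a broader view. Of 88 genes annotated to the KEGG NF-kappa B signaling pathway, 67 were tested, of which 7 are members. Of the 67, 25 rose (37.3%, against 12.9% of all tested genes) and 12 fell (17.9%, against 23.0%), with a median log2 change of 0.08. The 25 include NFKB1, NFKB2, RELB, NFKBIA, TNFAIP3 and BIRC3, so this count partly repeats that of the members. Among the 67, 3 passed the filter only through the libraries labelled YAP and 1 only through controls. Those 3 are among the 25, and the direction of their calls had to follow.

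Leukocytes carry much NF-kB signalling, and their markers were read in the same libraries. Of 12 leukocyte markers, 3 were tested, with 1 higher (CD14) and 1 lower (CD68), and the summed FPKM of all 12 was 31.2 to 33.1 in the libraries labelled YAP and 23.3 to 26.7 in controls. The defining genes were at or near 0, with 0 reads of AIF1 in any library and at most 1 read of PTPRC, 1 of CD74 and 3 of TYROBP. In bulk RNA, fewer cells with a transcript and less of it per cell cannot be told apart.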

How the data were processed

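TRIzol RNA went into VAHTS Universal V6 libraries, per the labels' protocols. Tools listed in the submitters' processing notes are fastp, HISAT2 and HTSeq. The sources used here give no versions, genome build, strandedness or handling of multiply mapping reads. FPKM values, scaled per library, are what the authors deposited. Another 6 value columns (TAZ, pcDNA) match no labelled sample: 3 were identical to the control columns, and none was analysed further.

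Whole reads were recovered from the FPKM steps for 15958 genes above 0 (100.0% of values within 0.01 reads). Each linear model was fitted to all genes with limma 3.58.1 in R 4.3.3 (variance trend, pseudocount 1), and p-values were adjusted over all 10761 tested genes. The step was checked on simulated counts with known changes. Permutation tests were exact and two-sided. Alternatives were a pseudocount of 0.1, median-of-ratios scaling, no filter or one at 0.1 FPKM, quantile normalization, a replicate block, no variance trend, limma-voom on recovered reads, and leaving out each library. The members and gene lists were chosen with earlier results of these data known, and KEGG annotation was added after seeing the data. Named genes are all members, up to 4 per other list with the smallest adjusted p, and genes said to be named after their values were seen, as were the marker genes given with values. All 10 members matched a RefSeq symbol (assembly ARS1.2), used for names and gene order. No sequences are given.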

Additional observations from a re-analysis of the deposited data

How the results depend on the processing

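Over the 14 alternative fits, NFKB1, NFKB2, RELB, NFKBIA, NFKBIZ and TNFAIP3 stayed higher and past the threshold, and the count of members called ran from 6 to 8. Adjusted limma p ranged up to 0.022 for NFKBIA and up to 0.0024 for the other 5. BIRC3 ranged in log2 change from 0.28 to 0.55 and in adjusted p from 0.0016 to 0.1. RELA ranged from -0.21 to -0.11 and was called lower without a filter and with the replicate block (limma adjusted p = 0.016). The block raised the calls over all genes to 5573, against 3868 without it, and the members called to 8. Samples of the groups share only a replicate number, so the numbers were not taken to pair the samples. The deviations of same-numbered libraries correlated across genes at -0.02, 0.59 and 0.60 for numbers 1 to 3. YAP replicate 2 and control replicate 3 correlated at -0.62, and YAP replicate 3 and control replicate 2 at -0.56. Whether numbers 2 and 3 share a factor across the groups was not tested. Leaving out single libraries gave 2411 to 3606 genes called over the whole table, NFKB2 shares 8.40 to 9.89 points higher, and log2 ratios of NFKBIA to RELA 1.26 to 1.95 higher. The sign of the YAP1 change ran from -0.03 to 0.05 over these fits. With 3 libraries a group, depth limits REL, TNF and IL1B, and read numbers cover counting error only.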
